A study of Mus musculus with 18 samples.

Results

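The 9 genes described here encode serum response factor (SRF), its cofactor MKL1 and 7 proteins of the actin cytoskeleton: the actins Actb and Actg1, vinculin (Vcl), filamin A (Flna), non-muscle myosin heavy chain 9 (Myh9), tropomyosin 4 (Tpm4) and transgelin 2 (Tagln2). They were taken by gene symbol from a table of 14451 genes, of which 14449, these 9 included, had reads in 1 or more livers and entered the tests. The livers came from 18 wild-type male mice aged 8 to 9 weeks, kept under 12 h of light and 12 h of dark. Lights came on at Zeitgeber time (ZT) 0, and livers were taken at ZT1, ZT5, ZT9, ZT13, ZT17 and ZT21. More mice were used at each time than the 3 whose RNA was sequenced. Each liver is a separate mouse, every mouse gave a liver at 1 time only, and the livers with the best RNA at each time were the ones sequenced. No group was treated, so the comparison is between times of day, and all values are polyadenylated RNA of whole liver, in which fewer cells of a type and less RNA per cell cannot be told apart.

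SRF is a transcription factor that binds the CArG box, an A/T-rich core between CC and GG. MKL1 (also MRTF-A) is held by monomeric actin and, once actin assembles into filaments and frees it, enters the nucleus and joins SRF on target genes that include actins, vinculin and Srf itself. In the liver, actin filaments line the bile canaliculi and cell borders of hepatocytes and also serve the motility and contraction of the non-parenchymal cells, and SRF activity is known to follow blood-borne signals that vary over the day.

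The libraries held 10268168 to 23242842 estimated reads on genes (median 12078875). The deposited values, called normalized values below, are estimated reads with 0.5 added, expressed per 1000000 after correction of the library sizes. It is not divided by gene length. Livers of the same time resembled each other a little more than livers of other times (median correlation across genes 0.989 against 0.980). All 5 hepatocyte markers were present, with a summed normalized value of 66634 to 95908. Times were compared with limma on log2(value + 1), with p-values adjusted over all genes by the Benjamini-Hochberg method. On that scale a fold change is slightly understated for low genes such as Mkl1.

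A CArG box was looked for on both strands in the 300 bases from 250 before to 50 after each gene's start, as RefSeq gives them on GRCm38.p6. Promoters were found for 8 of the 9 genes, 9 promoters in all. None was found for Actb, so Actb was not searched. Srf, Actg1 and Vcl had a CArG box. The box was present in 1.63% of 32851 promoters of all genes. Srf had a pair of boxes that began 82 and 62 bases before the start, Actg1 had 1 box at 90 bases and Vcl had 1 at 227 bases. The 250 bases before the start are shown for these because the binding element of SRF lies in them (5′ to 3′ on the gene's strand, CArG boxes in capitals).
Srf, chr17:46556163-46556412, minus strand: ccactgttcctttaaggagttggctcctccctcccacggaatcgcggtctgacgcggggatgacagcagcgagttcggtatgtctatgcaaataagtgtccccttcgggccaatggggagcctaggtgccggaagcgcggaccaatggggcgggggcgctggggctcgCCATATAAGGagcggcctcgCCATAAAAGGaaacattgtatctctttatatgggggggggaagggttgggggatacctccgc
Actg1, chr11:120348496-120348745, minus strand: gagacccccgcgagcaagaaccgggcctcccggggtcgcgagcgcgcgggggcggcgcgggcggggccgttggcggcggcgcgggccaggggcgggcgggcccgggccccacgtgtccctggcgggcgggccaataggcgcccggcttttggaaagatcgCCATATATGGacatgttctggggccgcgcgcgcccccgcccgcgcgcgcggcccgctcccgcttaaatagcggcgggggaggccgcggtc
Vcl, chr14:20929148-20929397, plus strand: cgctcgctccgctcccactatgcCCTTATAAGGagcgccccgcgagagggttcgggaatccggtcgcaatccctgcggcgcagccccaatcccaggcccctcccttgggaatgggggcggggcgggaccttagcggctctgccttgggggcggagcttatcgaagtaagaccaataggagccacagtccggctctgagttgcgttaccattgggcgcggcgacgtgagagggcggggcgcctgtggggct
The promoters matched for Mkl1, Flna, Myh9, Tpm4 and Tagln2 held no exact match, which says only that these letters are not in this window. The genes with and without a box were not set against each other by a test.

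Of the 9 genes, 4 differed between the 6 times: Actg1, Actb, Mkl1 and Vcl (adjusted p = 0.000411, 0.00135, 0.0171 and 0.0306, limma). Of all genes tested, 26.3% did. With a 24 h cosine 3 of the 9 passed, namely Actb, Actg1 and Vcl, against 35.3% of all genes. The median peak-to-trough size of that cosine was 0.32 on the log2 scale over the 9 genes and also 0.32 over all genes tested. The share with a 24 h cosine (33.3%) and the median size are thus close to those of all genes, and the share that differed between times is 44.4%, with few genes in the list.

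**Figure D1:**
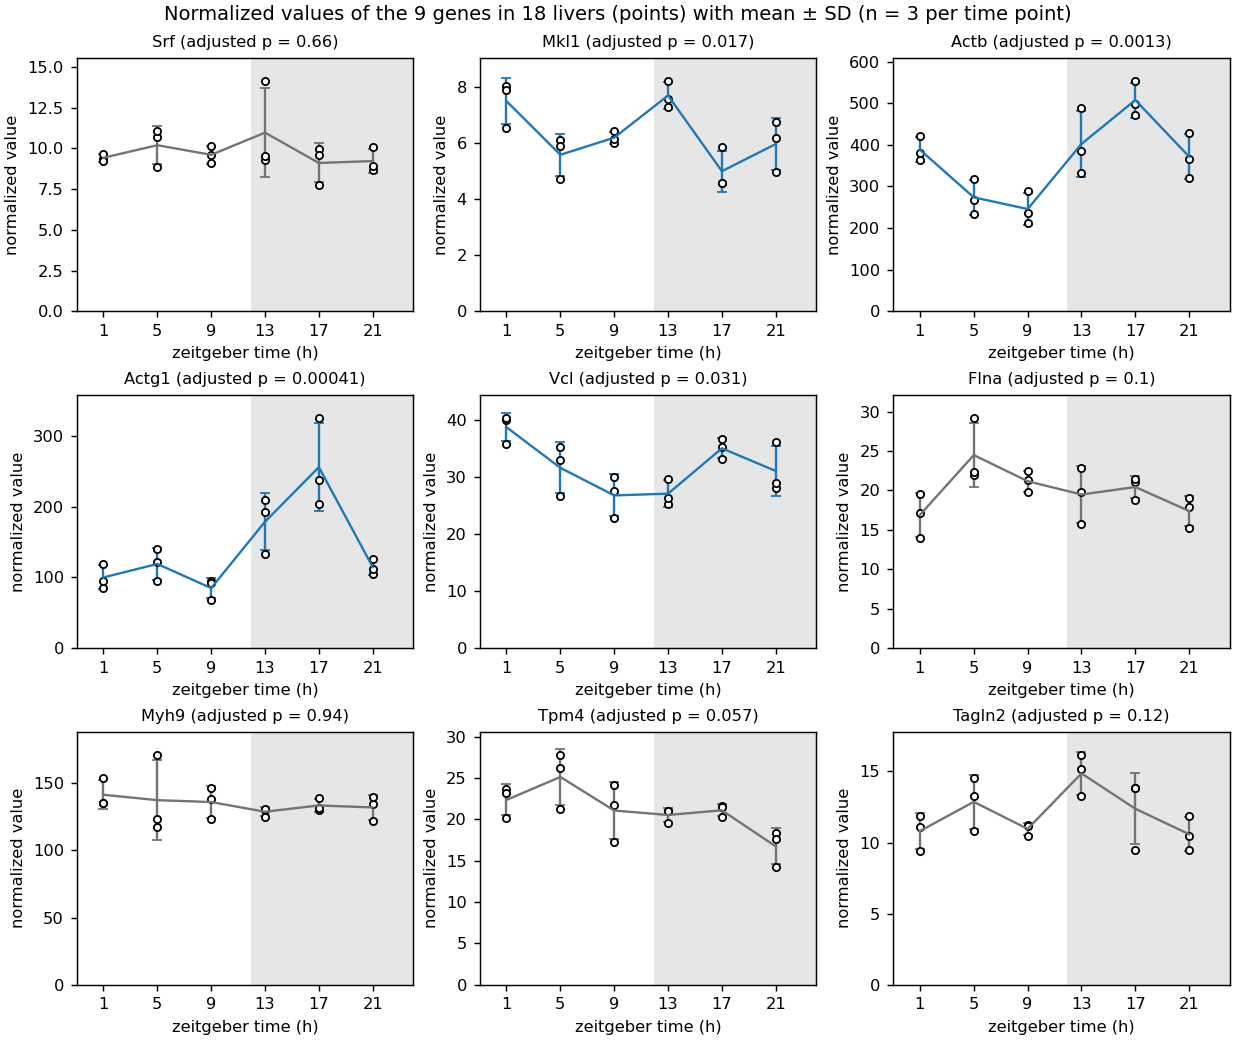
Normalized value (y axis, from 0) of each of the 9 genes against Zeitgeber time in hours (x axis), with 1 point for each liver, a line through the means of the 3 livers at each time and the SD as error bar. Adjusted p-values of the test between times stand above the panels and shading marks the dark. The actins are highest at ZT17, Mkl1 is high at ZT1 and ZT13, Vcl is highest at ZT1, and 1 liver at ZT13 lies above all others for Srf.

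The RNA of Srf (ENSMUSG00000015605, chr17:46548329-46556175, minus strand) was low and was not shown to differ with time of day. The normalized values were 9.38, 9.69 and 9.22 at ZT1, 8.88, 10.7 and 11.1 at ZT5, and 9.58, 9.09 and 10.2 at ZT9. In the dark they were 14.1, 9.27 and 9.51 at ZT13, 9.98, 7.74 and 9.60 at ZT17, and 8.68, 8.91 and 10.1 at ZT21. The liver at 14.1 alone stood clear of the rest, and the other livers overlapped at every time. Means lay between 9.11 ± 1.20 at ZT17 and 10.97 ± 2.74 at ZT13 (SD, n = 3), with an adjusted p of 0.663 between times and of 0.539 for a 24 h cosine. The fitted cosine had a peak-to-trough size of 0.15 ± 0.11 on the log2 scale (SE, n = 18). These values rest on 89 to 265 estimated reads per liver, and counting alone gives a coefficient of variation of 9.51% at the median of 110.5 reads, close to the 10.98% between livers of the same time.

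Mkl1 (ENSMUSG00000042292, chr15:81012281-81190757, minus strand), the actin-regulated cofactor, differed between times, with its highest means at ZT1 and ZT13, and fell between ZT13 and ZT17. Its values were 6.54, 8.05 and 7.89 at ZT1, 6.12, 5.89 and 4.72 at ZT5, and 6.43, 6.01 and 6.14 at ZT9. In the dark they were 7.58, 7.29 and 8.21 at ZT13, 4.56, 5.84 and 4.58 at ZT17, and 4.96, 6.75 and 6.18 at ZT21. The 3 livers of ZT13 lay above every liver of ZT5, ZT9, ZT17 and ZT21, and overlapped those of ZT1. The means ran from 7.69 ± 0.470 at ZT13 to 4.99 ± 0.733 at ZT17 (SD, n = 3), a ratio of 1.54. From ZT13 to ZT17 the value fell by 0.54 ± 0.12 on the log2 scale (SE), with an adjusted p of 0.0420 (limma), a step in which 0.533% of all genes passed in that direction and no other member did. This call was lost without a pseudocount (adjusted p = 0.0531), with a prior variance that followed the mean level (0.0536) and in 12 of 18 fits without a liver, where it reached 0.163 at most.

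The daily course of Mkl1 had 2 high times 12 h apart, and no 24 h cosine passed for it (adjusted p = 0.832). A 12 h cosine added to the 24 h one passed for Mkl1 (adjusted p = 0.0397) and Actg1 (0.0342), against 0.872% of all genes, or 126 genes. Both calls were close to the threshold. For Mkl1 the adjusted p was 0.0514 without a pseudocount, 0.0697 with equal column totals and 0.0501 with a prior variance that followed the mean level. The call of Mkl1 was lost in 13 of the 18 fits without 1 liver (adjusted p up to 0.102). For Actg1 the adjusted p was 0.0555 without a pseudocount and 0.0502 with equal totals, and the call was lost in 11 such fits (up to 0.0729). Mkl1 was read at 61 to 113 estimated reads per liver, so counting alone gives a coefficient of variation of 11.3%, against 10.7% between livers of the same time. Its difference between the 6 times nonetheless stayed below 0.05 in all 18 fits without 1 liver (adjusted p from 0.0108 to 0.0454).

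Actb (ENSMUSG00000029580, chr5:142903115-142906754, minus strand), the beta form of cytoplasmic actin, had the highest value of the 9 and rose between ZT9 and ZT13. No liver was taken between these times, so the rise cannot be placed in the late light or the early dark. Its values were 380.5, 421 and 363 at ZT1, 318, 269 and 235 at ZT5, and 212, 289 and 236 at ZT9. In the dark they were 489.6, 332 and 385 at ZT13, 499, 553 and 471 at ZT17, and 428, 320.3 and 367 at ZT21. Every liver of ZT17 lay above every liver of ZT1, ZT5, ZT9 and ZT21, and only the first liver of ZT13 reached into their range. The mean was 508 ± 41.9 at ZT17 and 246 ± 39.4 at ZT9 (SD, n = 3), a ratio of 2.07. From ZT9 to ZT13 the value rose by 0.70 ± 0.16 on the log2 scale (SE, adjusted p = 0.0127, limma). The 24 h cosine peaked at 18.5 h, with a size of 0.87 ± 0.17 on the log2 scale (adjusted p = 0.00189).

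Actg1 (ENSMUSG00000062825, chr11:120345690-120348542, minus strand), the gamma form of cytoplasmic actin, also rose between ZT9 and ZT13 and fell again between ZT17 and ZT21. Its values were 119, 85.7 and 95.6 at ZT1, 141, 95.0 and 121 at ZT5, and 68.4, 94.3 and 91.8 at ZT9. In the dark they were 210.1, 134 and 193 at ZT13, 326, 204.5 and 238 at ZT17, and 126, 105 and 112.5 at ZT21. The livers of ZT17 exceeded all others except the first liver of ZT13, and the values of ZT21 overlapped those of ZT1 and ZT5. The mean was 256 ± 62.8 at ZT17 and 84.9 ± 14.3 at ZT9 (SD, n = 3), a ratio of 3.02. The rise from ZT9 to ZT13 was 1.06 ± 0.21 on the log2 scale (adjusted p = 0.00542, limma). From ZT17 to ZT21 the value fell by 1.13 ± 0.21 (adjusted p = 0.0157), and 0.568% of all genes passed in that direction. The 24 h cosine had a size of 1.17 ± 0.27 on the log2 scale and a peak at 16.3 h (adjusted p = 0.00786).

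Of all genes, 4.64% rose from ZT9 to ZT13, the step in which Actb and Actg1 were the 2 members to pass. The rise of Actb had an adjusted p above 0.05 without the first liver of ZT9 or of ZT13 (at most 0.0651), and that of Actg1 did not in any of the 18 fits (at most 0.0321). The fall of Actg1 from ZT17 to ZT21 was lost without the first liver of ZT17 or without the second or the third of ZT21 (at most 0.0826). No member passed from ZT1 to ZT5, ZT5 to ZT9 or ZT21 to ZT1, where 4.89%, 1.54% and 0.131% of all genes did (limma), and 2845, 1764 and 1326 genes had an unadjusted p under 0.05.

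The actin pair encodes nearly the same protein, and the likeness of the coding sequences bears on how short reads are shared between them. The first 60 coding bases of each, from the GENCODE M21 transcripts on GRCm38, are shown as a stretch in which the pair can be told apart (capitals mark the 9 bases that differ).
Actb: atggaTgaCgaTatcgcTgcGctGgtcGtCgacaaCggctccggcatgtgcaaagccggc
Actg1: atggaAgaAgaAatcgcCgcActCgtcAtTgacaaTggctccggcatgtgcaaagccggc
Over all 1125 coding bases there were 128 differences (88.6% identity), and 30 of 1076 windows of 50 bases, the read length, were identical in both. Counting the transcripts of every other gene, pseudogenes included, 14.2% of the 50-base windows of Actb and 56.7% of those of Actg1 occurred elsewhere, in 18 and 22 other genes. RSEM assigns such reads by estimate, so the level of Actg1 rests more on that estimate than that of Actb. The share was 12.1% for Tpm4, 1.12% for Myh9 and 0.781% for Tagln2, and none of the windows of Srf, Mkl1, Vcl or Flna was shared.

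Actg1 lay below Actb in every liver, with a ratio between 0.203 and 0.654. As both genes have nearly equal exon length, the ratio of normalized values is given as it stands. It was 0.312, 0.203 and 0.263 at ZT1 and 0.654, 0.370 and 0.505 at ZT17. The mean was 0.259 ± 0.0544 at ZT1, 0.438 ± 0.0820 at ZT5, 0.346 ± 0.0379 at ZT9, 0.444 ± 0.0509 at ZT13, 0.510 ± 0.142 at ZT17 and 0.310 ± 0.0159 at ZT21 (SD, n = 3). The livers of ZT17 all lay above those of ZT1 and ZT21, whereas ZT5, ZT13 and ZT17 overlapped. The ratio was not tested.

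**Figure D2:**
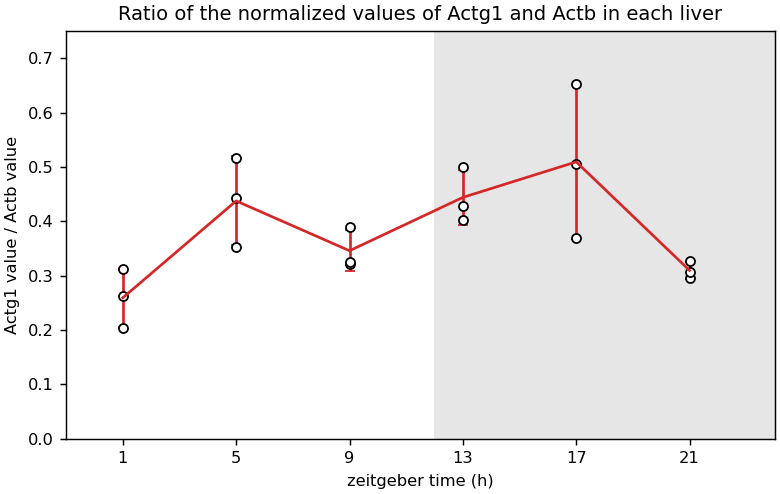
Ratio of the normalized value of Actg1 to that of Actb (y axis, from 0) in each liver (points) against Zeitgeber time in hours (x axis), with the mean of 3 livers at each time and the SD as error bar; shading marks the dark. The mean is 0.259 at ZT1 and 0.510 at ZT17, and no liver reaches 1.

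Vcl (ENSMUSG00000021823, chr14:20929398-21033676, plus strand), which ties actin filaments to cell adhesions, was highest at ZT1 and lowest at ZT9 and ZT13. Its values were 39.97, 35.9 and 40.4 at ZT1, 35.2, 32.99 and 26.6 at ZT5, and 22.7, 30.0 and 27.6 at ZT9. In the dark they were 25.2, 26.3 and 29.7 at ZT13, 33.1, 36.6 and 35.3 at ZT17, and 28.1, 36.1 and 29.0 at ZT21. The livers of ZT1 and ZT17 lay above those of ZT9 and ZT13 without overlap. The means of 38.7 ± 2.51 at ZT1 and 26.8 ± 3.70 at ZT9 (SD, n = 3) gave a ratio of 1.45. The 24 h cosine peaked at 23.0 h with a size of 0.41 ± 0.12 on the log2 scale (adjusted p = 0.0407, limma). With columns rescaled to equal totals the adjusted p was 0.0503 for the cosine and 0.0729 between times, and leaving out 1 liver at a time lost the cosine call in 10 of 18 fits and the other in 4 (without the first or the third liver of ZT1, or the first or the second of ZT13).

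Flna (ENSMUSG00000031328, chrX:74223461-74249820, minus strand), an actin crosslinker, and Tpm4 (ENSMUSG00000031799, chr8:72134975-72153142, plus strand), which lies along the filament, did not pass. The Flna values were 29.2, 21.9 and 22.3 at ZT5 and 19.6, 13.96 and 17.2 at ZT1. The ZT5 livers lay above the ZT1 livers, by 0.51 ± 0.15 on the log2 scale, but the step had an adjusted p of 0.0632 and the 6 times one of 0.100 (limma). With a prior variance that followed the mean level, the step passed for Flna, as it did for Actb. Tpm4 had values of 27.8, 26.2 and 21.3 at ZT5 and of 14.2, 18.3 and 17.6 at ZT21, and an adjusted p of 0.0569 between times. That of Tpm4 dropped to 0.0469 when only genes with a mean of at least 1 were tested, and to 0.0374 with the prior variance that followed the mean level. It was also below 0.05 without the third liver of ZT5 or without the second or the third of ZT9 (lowest 0.0307), and the Flna step was without the first liver of ZT1 or the second of ZT13 (lowest 0.0453). The 24 h cosine of Tpm4 (adjusted p = 0.132) passed with equal column totals (0.0468) and without the third liver of ZT9 (0.0372).

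Myh9 and Tagln2 did not pass either. Myh9 (ENSMUSG00000022443, chr15:77760587-77842175, minus strand), the motor of non-muscle myosin IIA, had the smallest cosine of the 9, with values from 117 to 171, means of 129 to 141 and a size of 0.09 ± 0.09 on the log2 scale (adjusted p between times 0.942). Tagln2 (ENSMUSG00000026547, chr1:172500047-172507380, plus strand), an actin-binding protein of the calponin family, had its highest mean at ZT13 (14.9 ± 1.49, from 13.2 to 16.2) and values down to 9.42 at other times. Its difference from ZT9 to ZT13 was 0.40 ± 0.14 on the log2 scale with an adjusted p of 0.0935, and the 6 times had one of 0.121, or 0.0395 without the second liver of ZT17.

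By length, the order of levels was set by the actins. Per kilobase of merged exons, the mean normalized value over the 18 livers was 136 for Actb, 53.5 for Actg1, 10.4 for Myh9, 9.60 for Tpm4, 5.80 for Tagln2, 3.87 for Vcl, 3.37 for Srf, 2.13 for Flna and 1.03 for Mkl1. Between neighbours in this order only Actg1 and Myh9, and Flna and Mkl1, had ranges over the livers that did not meet. The ranges of Actb and Actg1 overlapped across livers, although not within a liver.

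Rewritten versions of the rhythm algorithms gave fewer calls among these genes than limma. These versions also called fewer genes of the whole table than the paper reports for these livers. The original programs were not run, so a gene without a call below may still be called by them. JTK and MC (MetaCycle) called Actb alone, with q-values of 0.0184 and 0.00485, against 14.1% and 18.3% of all genes. CircaN was run with its plain cosine curve only, which called 11.2% of all genes and Actb among the 9 (R2 0.784, q-value 6.31e-15). That q-value combines the p of the amplitude with a p of the period against 0, although the period was confined to 20 to 28 h. Its size is therefore no measure of the strength of the rhythm. The fitted period of Actb was 20 h, the shortest allowed. With the period held at 24 h the q-value of Actb was 0.000811, its R2 fell below 0.7 and no member was called. Actg1 had a JTK q-value of 0.417 and an MC q-value of 0.303, and an R2 of 0.561, below the 0.7 required.

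Some livers were high or low for several of the genes at once. The first liver of ZT5 was the highest of its 3 for 8 of the 9 genes, all but Srf. At ZT13 the first liver was the highest for 5 (Srf, Actb, Actg1, Tpm4 and Tagln2) and the second was the lowest for 7. Markers of other cell types stood high in the first liver of ZT5: the summed values of 7 stellate cell, 6 sinusoidal endothelial and 6 Kupffer cell markers were 280.3, 219.5 and 236, each the highest of the 18 livers. The same liver was also the highest for the 4 erythroid markers, with a sum of 628 against a median of 216 over the livers, and for the 4 leukocyte markers tested, with 12.97 against 10.9. By time, the endothelial sum ran from 172.6 to 219.5 at ZT5 and from 90.4 to 142.7 at ZT21. The Flna and Tpm4 means were also highest at ZT5. That of Tpm4 was lowest at ZT21, but that of Flna was lowest at ZT1 (16.9, against 17.4 at ZT21). The lowest endothelial sum of all, 86.1, was in the second liver of ZT17, with Flna at 18.8 and Tpm4 at 20.3. The hepatocyte sum was 66634 to 72154 at ZT9 and 84062 to 95908 at ZT17, the times of the lowest and the highest Actb mean. Alb made up most of that sum, with means of 52953 at ZT9 and 71855 at ZT17 (adjusted p between times 0.0547, limma). Of the other hepatocyte markers, Ttr had means of 4006 and 5280 at these times and Hnf4a of 546 and 554. Apoa1 (7003 and 6025) and Cyp2e1 (5114 and 4907) were lower at ZT17. Of the markers tested, a 24 h cosine passed for 3 of 5 hepatocyte (Ttr, Cyp2e1 and Hnf4a), 2 of 6 endothelial (Stab2 and Kdr), 3 of 6 Kupffer cell (Cd5l, Timd4 and Marco), 1 of 7 stellate cell (Col3a1), 3 of 5 cholangiocyte and 1 of 2 mesothelial genes. It passed for none of 3 smooth muscle, 4 leukocyte or 4 erythroid genes, and for 35.3% of all genes tested. The part of these cell types in the results above was not tested.

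**Figure D3:**
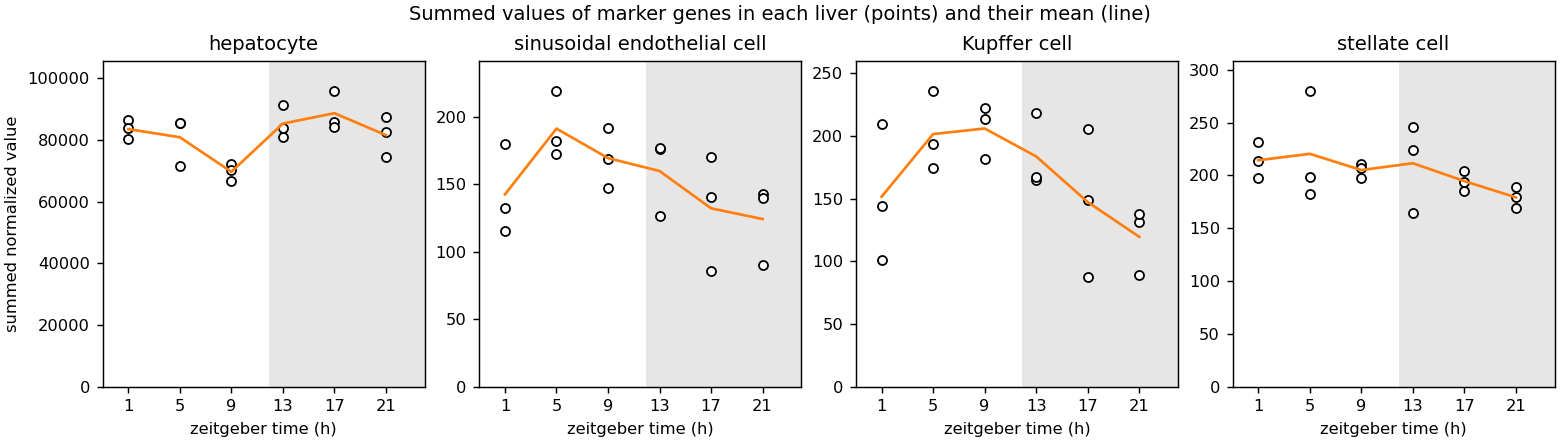
Summed normalized value of the markers of hepatocytes, sinusoidal endothelial cells, Kupffer cells and stellate cells (1 panel each, y axis, from 0) in each liver (points) against Zeitgeber time in hours (x axis), with a line through the means; shading marks the dark. The endothelial sum is 172.6 to 219.5 in the ZT5 livers and 90.4 to 142.7 in the ZT21 livers.

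Whether Srf moves with its partners was asked over the 18 livers, on log2(value + 1). For 8 relations, Pearson's r lay between -0.451 for Vcl and 0.483 for Tagln2, and none passed after adjustment (lowest adjusted p 0.220, permutation test, two-sided, 100000 resamples). Myh9 had r = -0.427 (p = 0.0826) and Spearman's rho = -0.670 (p = 0.00298, adjusted p = 0.0238), and r was -0.659 without the 2 livers farthest from the Srf median and -0.441 within times. Tagln2 had r = 0.483 (p = 0.0365) and rho = 0.187 (p = 0.454), and r was 0.0133 without those 2 livers, so that relation rested on them. For the actins r was -0.0892 (Actb, p = 0.736, rho = -0.162, p = 0.522) and 0.109 (Actg1, p = 0.667, rho = -0.0671, p = 0.793), and for Mkl1 0.0945 (p = 0.719, rho = -0.0155, p = 0.955). For Vcl r was -0.451 (p = 0.0552) and rho -0.449 (p = 0.0628), for Flna 0.130 (p = 0.591) and 0.302 (p = 0.220), and for Tpm4 0.109 (p = 0.653) and 0.100 (p = 0.694).

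The genes whose pattern over the 18 livers was most like that of Srf were Ppp1r3e (r = 0.817), Map3k11 (0.811), Tead1 (0.781), Cep170b (0.779) and Plxna1 (0.763), among 12479 genes with a mean value of at least 1. The points share depth and scaling within a liver, and no p is given for this choice among many genes. Among the members, Tagln2 ranked at 411 in that order and Vcl at 12079.

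The wider pathway was followed in 6 lists with 77 genes, of which 68 were tested. Of these, 19 differed between times (27.9%) and 21 had a 24 h cosine (30.9%), close to 26.3% and 35.3% of all genes. The median cosine size was 0.25 on the log2 scale, against 0.32 for all genes. Of the 21 fitted peaks 15 fell in the light (71.4%) and 6 in the dark, and of the 5103 genes of the whole table with a 24 h cosine 51.6% peaked in the light. The peaks of Actb, Actg1 and Vcl were in the dark, and the difference between the lists, the members and all genes was not tested. No gene of the 6 lists passed for the 12 h cosine.

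Among the SRF cofactors, 2 of 4 tested differed between times (limma), where 26.3% of all genes did. Mkl2, the close relative of Mkl1, had its cosine peak at 20.1 h and a size of 0.49 ± 0.12 on the log2 scale (adjusted p between times 0.0190). Elk4, a ternary complex factor that binds beside SRF, peaked at 5.19 h with a size of 0.46 ± 0.09 (adjusted p = 0.000784). Mkl2 fell and Elk4 rose from ZT1 to ZT5. Of the other actin isoforms, 1 of 3 tested passed, the smooth muscle actin Acta2 (adjusted p = 0.0422), at a mean of 1.09 and with its highest mean, 2.38 ± 1.09, at ZT17.

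None of the 21 genes of actin turnover and branching (profilin, cofilin, thymosin and the Arp2/3 complex among them) differed between times, although 4 passed for the 24 h cosine. Their median cosine size was 0.16 on the log2 scale. Of 21 crosslinker and adhesion genes 9 differed between times (42.9%) and 10 had a 24 h cosine (47.6%), against 26.3% and 35.3% of all genes. Actn1 (alpha-actinin, a filament crosslinker) was highest at ZT9, at 38.2 ± 1.16, and 17.8 ± 1.94 at ZT21, with a peak at 8.13 h and a size of 1.04 ± 0.08 (adjusted p between times 5.84e-06). Zyx (zyxin, of focal adhesions) ran from 22.8 ± 2.42 at ZT1 to 42.9 ± 3.05 at ZT13 with a peak at 12.3 h (adjusted p = 7.93e-05). Fermt2 (kindlin-2, an integrin activator) ran the other way, from 164 ± 2.82 at ZT1 to 81.3 ± 8.80 at ZT13, with a peak at 0.44 h (adjusted p = 0.000131).

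Of 14 myosin and tropomyosin genes 4 differed between times (28.6%) and 3 had a 24 h cosine (21.4%), against 26.3% and 35.3% of all genes. Cald1 (caldesmon, which binds actin and myosin) fell from ZT9 to ZT13 and had means of 284 ± 9.69 at ZT1 and 164 ± 26.7 at ZT13 (adjusted p between times 0.000784). The non-muscle myosins Myh10 and Myh14 had fitted peaks at 3.09 and 2.23 h and sizes of 0.96 ± 0.16 and 0.70 ± 0.14 on the log2 scale (adjusted p = 0.00118 and 0.000923), against 0.09 ± 0.09 for Myh9. From ZT9 to ZT13, 5 of the 68 genes tested in the 6 lists fell (Elk4, Actn1, Myh10, Cald1 and Junb) and 0 rose (limma), in a step in which 4.6% of all genes fell and 4.64% rose.

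The immediate early genes, the other class of SRF targets, had a median cosine size of 0.73 on the log2 scale, the highest of the 6 lists. That median is the size of Fos, a low gene with a mean value of 1.14. Of 5 tested, 3 differed between times (limma), against 26.3% of all genes. Egr1 was at 107 ± 18.4 at ZT1 and 1.59 ± 0.849 at ZT13, with a cosine size of 4.59 ± 0.65 on the log2 scale and its peak at 1.11 h (adjusted p between times 0.000319). Junb peaked at 4.14 h with a size of 1.67 ± 0.23 (adjusted p = 0.00213). Fos was highest at ZT1, at 2.72 ± 0.584 (adjusted p between times 0.00226), and its 24 h cosine did not pass (0.0719). At ZT1 the mean of Srf was 9.43 ± 0.235 and that of Mkl1 7.49 ± 0.828 (SD, n = 3).

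**Figure D4:**
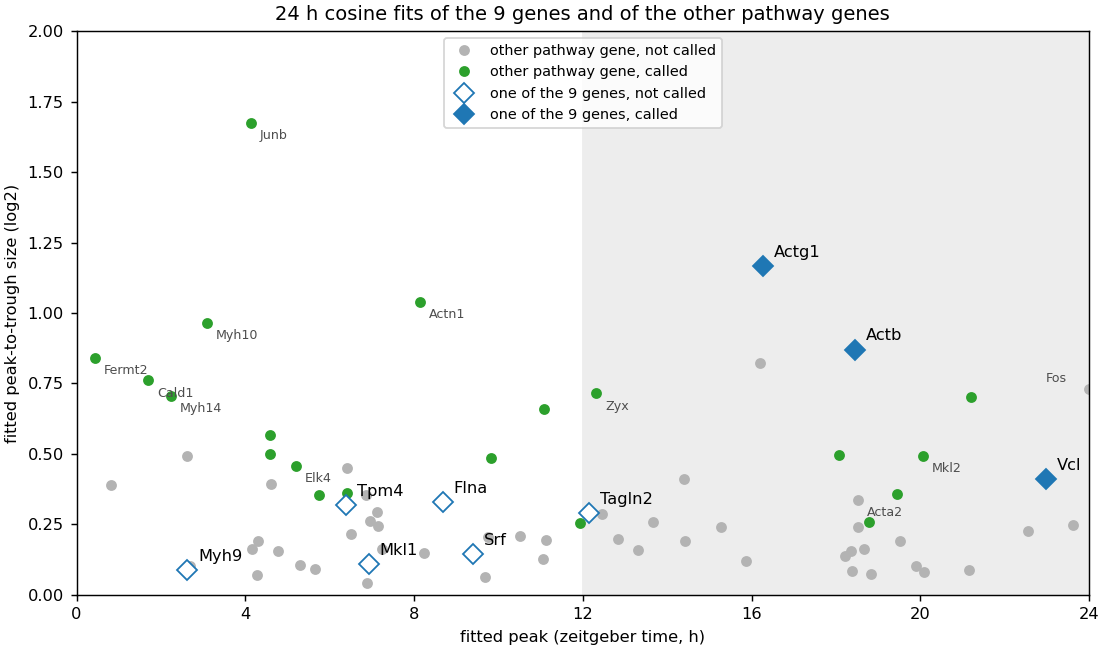
Peak-to-trough size of the fitted 24 h cosine on the log2 scale (y axis) against its fitted peak in hours of Zeitgeber time (x axis), for the 9 genes and the other pathway genes, each a point; filled diamonds (the 9 genes) and green points (other genes) passed the test and shading marks the dark. Actb, Actg1 and Vcl lie in the dark, 15 of 21 other pathway genes that passed lie in the light, where 51.6% of all genes with a 24 h cosine peaked, and Egr1, at 4.59, lies above the upper limit and is not drawn.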

How the data were processed

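PolyA RNA of 18 livers was sequenced by the authors in 50-base single reads, trimmed with Cutadapt and estimated per gene with RSEM (1.2.20 per the labels) on GRCm38 with Ensembl gene-build 84. The deposited signal is the authors' normalized value, (estimated count + 0.5) scaled to 1000000 of effective library size with limma. It is not a count, and reads are not whole because RSEM divides shared reads, so no count model was used. Strand was not given in the sources used here, so reads of overlapping antisense genes may be included. Estimated reads of each gene were computed back from the values.

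On log2(value + 1), limma (3.58.1, R 4.3.3) compared the 6 times, the 6 steps between neighbouring times, a 24 h cosine and an added 12 h cosine over 14449 genes with Benjamini-Hochberg adjustment at 0.05. JTK, MC and CircaN were rewritten in Python (3.11.15, scipy 1.17.1), with periods of 20 to 28 h. The constants of the other 6 CircaN curves were not given in the sources used here, so only its cosine was fitted (q under 0.05 and R2 of at least 0.7). JTK and MC were called at a q-value under 0.05. All were tested on simulated data. CArG boxes were searched in RefSeq promoters, and shared 50-base windows in GENCODE M21 transcripts (GRCm38).

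The members and all lists were chosen with earlier results of these data known. The text names the 9 genes, up to 3 genes of each pathway list with the lowest adjusted p between times, and the 5 genes most like Srf. A further gene list is not reported here. Marker lists were summed per liver. Alternatives were no pseudocount, a mean value of at least 1, equal column totals, limma-trend, 24 h periods only, log2 values for the CircaN cosine, and each liver left out in turn. JTK and MC were not run on log2 values. Nothing says that the 18 livers were processed in batches. The p-values between times rest on the spread between livers of different mice, which also holds the noise of read counting. For Mkl1 and Srf that noise is about as large as the whole spread within times.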

Additional observations from a re-analysis of the deposited data

How the results depend on the processing

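No paired analysis was possible because the replicate numbers only follow the order of the samples and each mouse gave 1 liver at 1 time. The calls of Actb and Actg1 between times and for the 24 h cosine, and of Mkl1 between times, kept their side of 0.05 under every alternative and without any 1 liver. Without a pseudocount the 12 h cosine passed in 62 genes and in 0 members, and 0 members passed from ZT13 to ZT17. With equal column totals, which shifted ZT5 against ZT17 by 0.13 on the log2 scale, 0 members passed for 12 h, Vcl lost both its calls and Tpm4 passed for the 24 h cosine. With limma-trend 1 member passed for 12 h, 2 from ZT1 to ZT5 and 0 from ZT13 to ZT17, while the steps ZT5 to ZT9, ZT13 to ZT17, ZT17 to ZT21 and ZT21 to ZT1 had 334, 300, 333 and 29 genes. With the period held at 24 h, CircaN called 0 members. Leaving out 1 liver at a time gave 32 to 114 genes and 0 to 2 members for 12 h, 352 to 729 and 0 to 1 from ZT1 to ZT5, 79 to 238 from ZT5 to ZT9, 701 to 1342 and 1 to 2 from ZT9 to ZT13, 49 to 208 and 0 to 1 from ZT13 to ZT17, 49 to 209 and 0 to 1 from ZT17 to ZT21, 9 to 19 from ZT21 to ZT1, and 1266 (without ZT5 replicate 2) to 1913 genes for JTK. Without 1 liver, the correlation of Srf with Mkl1 lay between -0.176 and 0.212, with Actb between -0.515 and 0.110, with Actg1 between -0.182 and 0.266 and with Tpm4 between -0.0308 and 0.215, so these had no stable sign. The cause was not tested. Depth limits Mkl1 and Srf most, since counting alone gives a coefficient of variation of 11.3% and 9.51% at their median reads, against at most 8.14% for the other members.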
